A study of Rattus norvegicus with 12 samples.

Results

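Cells passaged many times and then moved onto a soft gel were compared with cells passaged fewer times and kept on rigid plastic. The members were the 3 libraries of soft gel at passage 6 and the 3 libraries of plastic at passage 3, chosen by their labels, which is 6 of the 12 libraries of the series. All cells were wild-type fibroblasts from the ventricles of adult rat hearts, grown in DMEM/F-12 medium with 20% fetal bovine serum. The plastic was tissue culture polystyrene, the rigid surface of ordinary dishes. The gel was a flat layer of soft poly(ethylene glycol) norbornene hydrogel, a synthetic polymer network. A treatment time of 48 h is given in the labels of both surfaces. The remaining 6 libraries, 3 of soft gel at passage 3 and 3 of plastic at passage 6, entered the model through the shared estimate of the spread and are given beside the results. The replicates are described as biological, with no word on whether each is its own animal or its own culture. The p-values here therefore reflect library-to-library spread, part of which may be technical. The rats' age is not given in the labels.

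Cardiac fibroblasts build and renew the collagen-rich matrix of the heart wall. On a stiff surface they tend to activate, acquiring contractile stress fibres and secreting more matrix, and a soft surface is used to hold back or reverse that state. Repeated passaging can bring cells toward senescence, a lasting arrest of division that often comes with secretion of inflammatory factors. The comparison asked which genes of late cells given a soft surface still differed from early cells on plastic. Surface and passage change together between these groups, and cultures at the 2 passages may differ in other ways, so within this comparison their parts cannot be told apart. In RNA from whole cultures, fewer cells of a type and less RNA per cell cannot be told apart either.

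Raw counts were given for 32623 Ensembl identifiers of the rat without gene names, and the reference table used here lists no Ensembl identifiers. Genes are therefore given by identifier, 2 for each direction, and no role is given to any of them. For the same reason the fibroblast label could not be set against marker genes. Plastic libraries of passage 3 held 61840796, 69120841 and 60498549 counts, and soft gel libraries of passage 6 held 57482018, 57061019 and 71464905. Spearman correlations across genes ran from 0.992 to 0.994 among the plastic passage 3 libraries, from 0.969 to 0.983 among the soft gel passage 6 libraries and from 0.945 to 0.964 between the groups. The biological coefficient of variation was 16.3% within plastic at passage 3 and 38.6% within soft gel at passage 6, so the late group was the more variable of the pair. Soft gel library 3 of passage 6 was in the widest replicate couples by a chi-square test of counts, at 266 and 242 per degree of freedom against 162 for the couple without it. The couples of plastic at passage 3 stood at 36.8 to 49.1.

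Late cells on soft gel differed from early cells on plastic at many genes, in both directions. Of 14660 genes past the filter on low counts, 2156 were higher on late soft gel and 1902 were lower (edgeR's quasi-likelihood test, Benjamini-Hochberg adjusted p under 0.05). The 4058 genes are 27.7% of those tested, with 14.7% higher and 13.0% lower. Most differences were modest: 2549 of the 4058 (62.8%) were smaller than 2-fold, and 1509 were at least 2-fold, which is 10.3% of the genes tested. Among the higher genes the median log2 fold change was 0.77, with quartiles of 0.48 and 1.55. Among the lower genes it was -0.72, with quartiles of -1.31 and -0.48. The median over all genes tested was 0.01. Large differences were more often upward, with 420 genes at least 4-fold higher (log2 of 2) against 263 at least 4-fold lower, and 224 against 130 at a log2 of 3. For 443 higher and 296 lower genes the whole 95% interval of the fold change lay beyond 2-fold.

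The 4058 genes became 2619 without plastic library 2 and 2579 without plastic library 3 of passage 3, of which 2575 and 2549 were among the 4058 in the same direction. Without soft gel library 3 of passage 6 there were 3311 genes, 2980 of them shared, and no gene was called in the opposite direction under any of the 22 alternatives run.

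**Figure D1:**
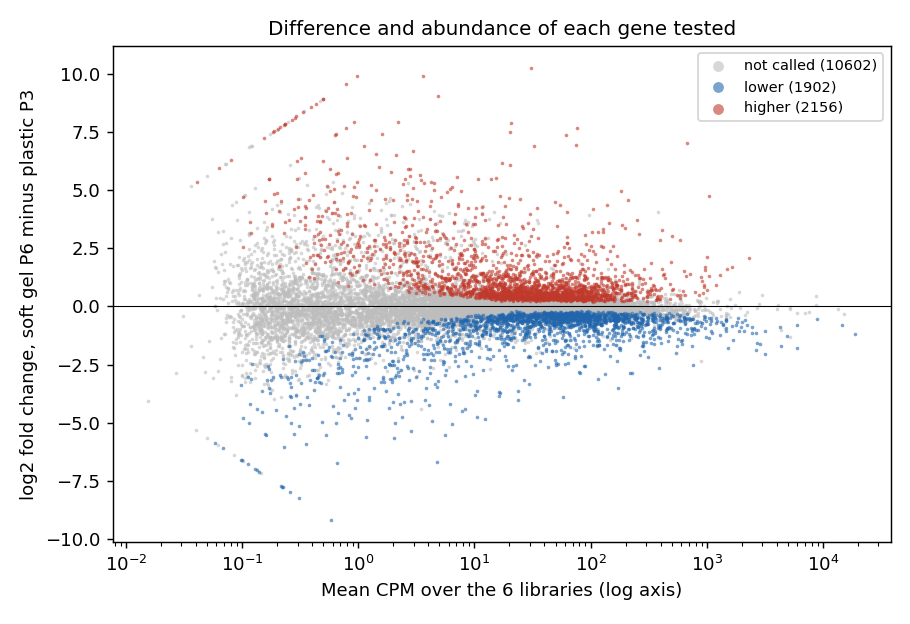
Each point is 1 of the 14660 genes tested, with its mean CPM over the 6 libraries on a log axis and its log2 fold change (soft gel P6 minus plastic P3) on the other axis. The 2156 genes called higher are red, the 1902 called lower are blue and the 10602 not called are grey; at the right-hand end, among the most abundant genes, blue points outnumber red ones.

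For 3980 of the 4058 genes (98.1%) every library of one group lay above every library of the other; over all genes tested, whatever their p, 7011 were separated in this way (47.8%). In the remaining 78 genes the groups overlapped, and in each of them leaving out 1 library separated the groups. Soft gel library 3 of passage 6 was such a library for 44 of the 78, and the other 5 libraries for 14 to 20 each. Which soft gel library lay nearest to the plastic level varied from gene to gene. Among higher genes it was library 1 in 43.0% of cases, library 2 in 30.1% and library 3 in 26.9%, and among lower genes the shares were 37.2%, 32.4% and 30.4%.

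The 10602 genes without a call are not all genes shown to be alike. For 6648 of them (62.7%) the 95% interval of the fold change lay within 2-fold in either direction, and for 4585 (43.2%) within 1.5-fold. For the remaining 3954 the interval reached past 2-fold, and 1299 of the uncalled genes had an estimate of at least 2-fold.

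The direction of the difference varied with how abundant a gene was. Abundance is given here as CPM, counts relative to a scaled library total, which takes no account of gene length. Of the 97 genes with a mean of 1000 CPM or more over the 6 libraries, 47 were lower and 9 higher on soft gel at passage 6. Of the 1743 genes from 100 to 1000 CPM, 471 were lower and 291 higher. Between 10 and 100 CPM the balance was the other way, with 1289 of 6870 genes higher and 923 lower. From 1 to 10 CPM 422 of 3414 genes were higher and 329 lower, and under 1 CPM 145 of 2536 were higher and 132 lower. The share of genes called rose with abundance, from 10.9% under 1 CPM through 22%, 32.2% and 43.7% to 57.7% at 1000 CPM or more. The median standard error of the log2 fold change was 0.79, 0.30, 0.13, 0.12 and 0.18 in the same order, so it fell at first and was higher again in the top class. The size of the called differences varied with abundance too. At least 2-fold apart were 99.6% of the called genes under 1 CPM and 70.2% of those from 1 to 10 CPM. In the next classes upward the shares were 22.3%, 24.3% and 48.2%. Over the 22 alternatives, other scalings among them, 36 to 52 of the genes at 1000 CPM or more were lower and 8 or 9 higher.

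**Figure D2:**
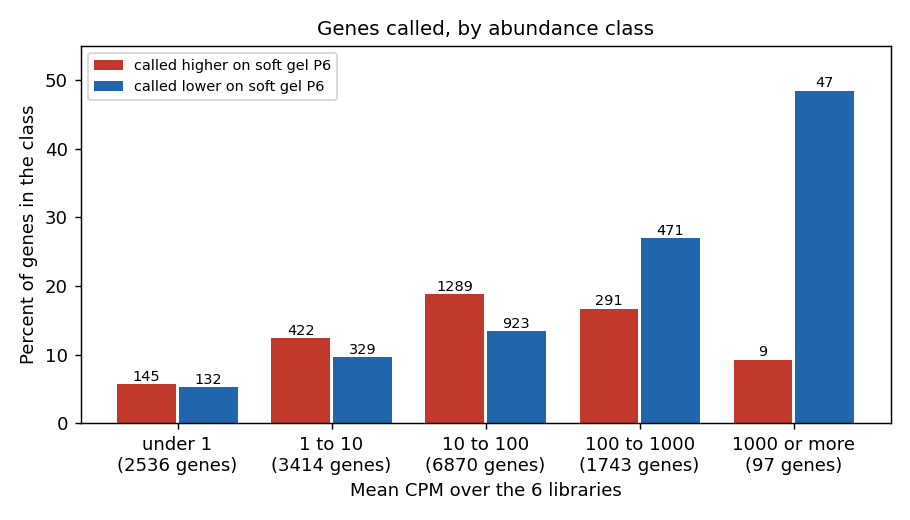
Bars give the percent of genes in each class of mean CPM that were called higher (red) or lower (blue) on soft gel P6 than on plastic P3, with the number of genes above each bar. Lower genes outnumber higher ones from 100 CPM upward, 47 against 9 in the top class, and the balance is reversed in the 3 classes below.

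The 6 most abundant genes among those called and at least 2-fold apart were all lower on soft gel at passage 6. None of the 6 overlapped between the groups, which also held for 98.1% of all called genes and 47.8% of genes tested. The first stood at 26600, 27900 and 24100 CPM on plastic at passage 3 and at 11400, 15200 and 8360 CPM on soft gel at passage 6. All 3 late libraries were below the early ones, by -1.17 ± 0.29 on the log2 scale (SE, n = 3 per group, edgeR adjusted p = 0.0129). Its level was 22600, 22500 and 21600 CPM on soft gel at passage 3, and plastic at passage 6 was widely spread at 16100, 37400 and 21500 CPM. The second stood at 9270, 9660 and 8940 CPM on early plastic and at 2170, 4030 and 1860 CPM on late soft gel, which is -1.79 ± 0.32 on the log2 scale (edgeR adjusted p = 0.0025). Its means of 5610 CPM on soft gel at passage 3 and 4090 on plastic at passage 6 lay between these. The fifth had the widest difference of the 6, from 5290, 4730 and 5400 CPM to 1720, 1280 and 760 CPM, or -2.03 ± 0.34 on the log2 scale (edgeR adjusted p = 0.00164). The log2 fold changes of the other 3 were -1.28, -1.70 and -1.04. All 6 passed under each of the 22 alternatives. The late soft gel libraries varied more, relative to their mean, than the early ones in these genes, and library 3 was the lowest of the 3 in each.

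The counts of the called genes shifted accordingly. Genes called lower held 37.7%, 37.8% and 37.8% of all counts in the early plastic libraries and 23.8%, 24.1% and 22.4% in the late soft gel libraries. Genes called higher held 8.54%, 8.41% and 8.52% on early plastic and 17.8%, 17.8% and 19.3% on late soft gel. The other groups fell between, with 33.1% to 33.5% of counts in the lower genes on soft gel at passage 3 and 26.8% to 31.7% on plastic at passage 6. Since the genes were picked for differing between the outer groups, these shares are a description, and they depend on how many genes are called. The mean share of the higher genes on early plastic was 8.49%. With the genes called without plastic library 1, 2 or 3 of passage 3 it was 6.04%, 5.52% and 5.36%. Over the 22 alternatives it ran from 5.36% to 10.2% on early plastic and from 13.1% to 21.1% on late soft gel, and that of the lower genes from 28.7% to 42.4% and from 16.3% to 27%. The 10 most abundant genes of each library, picked without regard to group, held 12.3%, 12% and 11.9% of counts on early plastic. They held 9.84%, 11% and 9.61% on late soft gel. These shares did not overlap, and an exact two-sided permutation test gave p = 0.1, the smallest value that 3 against 3 libraries allow. The number of genes with at least 1 count was 16613, 16424 and 16573 on early plastic and 16693, 16302 and 15990 on late soft gel, which overlapped (exact permutation p = 0.4).

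**Figure D3:**
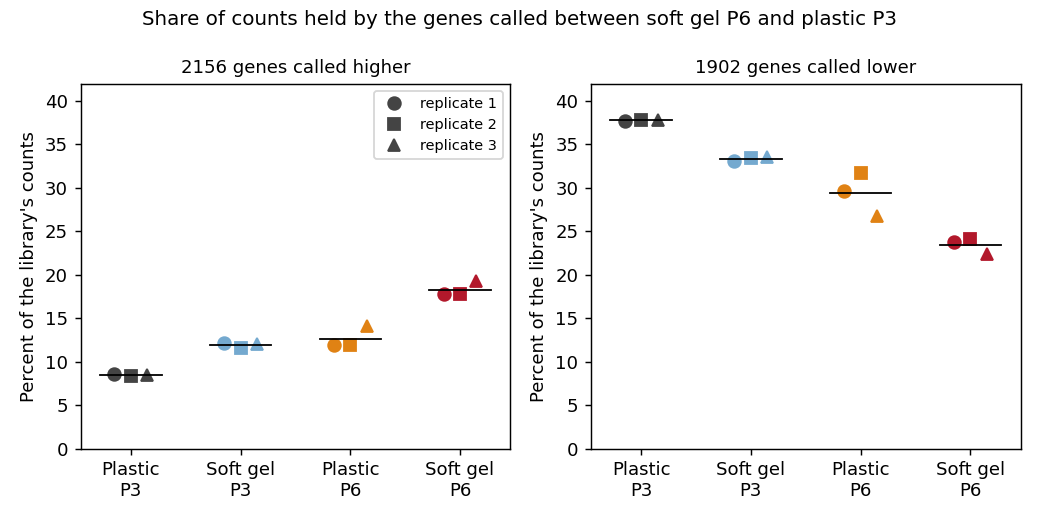
Each symbol is 1 library, with the percent of its counts in the genes called higher (left) or lower (right) between soft gel P6 and plastic P3, and each line is the mean of 3 libraries. The lower genes hold 37.7% to 37.8% of counts on plastic P3 and 22.4% to 24.1% on soft gel P6, with the other groups between.

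Few genes had at most 3 counts in every library of one group and reached 5 CPM in the other. Of the higher genes, 58 had at most 3 counts in every early plastic library, and their mean on late soft gel ran from 0.0819 to 9.75 CPM with a median of 0.587. Only 2 of the 58 reached 5 CPM. Of the lower genes, 33 had at most 3 counts in every late soft gel library, and their mean on early plastic ran from 0.118 to 1.3 CPM with a median of 0.314. These numbers depend on the strict cutoff. It leaves out ENSRNOG00000016945, with 0, 5 and 4 counts on early plastic and 2273, 7587 and 1647 on late soft gel. Also left out are ENSRNOG00000013916, with 12, 5 and 0 counts on late soft gel, and ENSRNOG00000018674, with 30, 14 and 0.

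Single genes were taken by size of change, in each direction, from the called genes whose libraries did not overlap and whose higher group averaged at least 5 CPM, a rule met by 1810 higher and 1620 lower genes. The 10 largest upward log2 fold changes ran from 6.90 to 10.2 and the 10 largest downward ones from -4.25 to -6.70. Of the upper 10, 7 averaged at least 5 CPM on plastic at passage 6 and 3 on soft gel at passage 3. Of the lower 10, 4 and 5 did so. On early plastic itself the means of the upper 10 ran from 0.00578 to 10.3 CPM. Reaching 5 CPM is therefore no mark of a rise by itself, and these counts are a description.

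ENSRNOG00000016945 had the largest rise. Its level was 0, 0.0763 and 0.069 CPM on early plastic, from 0, 5 and 4 counts, and 37.0, 128 and 20.8 CPM on late soft gel. On the log2 scale it rose by 10.22 ± 1.09 (SE), with a 95% interval from 7.82 to 12.63 (edgeR adjusted p = 0.000157). It was already at 23.2, 39.1 and 15.8 CPM on plastic at passage 6, and at 0.248, 0.529 and 1.28 CPM on soft gel at passage 3, so both late groups were high and both early groups low. Late soft gel and late plastic overlapped as groups, and their log2 difference of 1.25 ± 0.64 did not pass (edgeR adjusted p = 0.267). That test took no account of replicate numbers, and gel was above plastic within each number. It therefore does not show the late groups to be alike. A limma-voom model in which the plastic and gel libraries of one passage and replicate number form a pair, with pairs as random effects, gave a log2 difference from early plastic of 10.17 ± 4.41, nearly the same size with a larger error, and did not call it (adjusted p = 0.106), in a range from 1.48e-22 to 0.106 across the 22 alternatives.

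ENSRNOG00000028548 was detected with 1 count in all on early plastic, in library 1. On late soft gel it had 487, 793 and 24 counts, or 7.92, 13.3 and 0.303 CPM, and library 3 was far below the others. The ratio of summed counts, scaled for depth, was 1180 with an exact 95% interval from 211 to 46600 that covers counting error only. The fitted log2 fold change of 9.88 ± 1.74 (edgeR adjusted p = 0.00222) depends on the prior count, since the early group is almost empty. Without early plastic library 1, which holds the only early count, it was 11.77. Without soft gel library 1, 2 or 3 it was 9.80, 9.08 and 10.44. Levels were 0.827, 0.307 and 1.2 CPM on soft gel at passage 3 and 0.808, 0.897 and 0.102 CPM on plastic at passage 6. All of these lay above early plastic, and late soft gel library 3 lay among them. The difference was called neither by limma-voom with random pair effects (adjusted p = 0.262) nor by limma-voom with quality weights by group (adjusted p = 0.0661), in a range from 1.24e-09 to 0.262 across the 22 alternatives.

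ENSRNOG00000013916 had the largest fall. It stood at 8.17, 12.7 and 7.35 CPM on early plastic and at 0.195, 0.084 and 0 CPM on late soft gel, from 12, 5 and 0 counts. On the log2 scale the difference was -6.70 ± 0.84, with a 95% interval from -8.54 to -4.85 (edgeR adjusted p = 0.000355). Plastic at passage 6 held 7.35, 11.7 and 11.8 CPM and soft gel at passage 3 held 0.281, 0.836 and 0.227 CPM, so both gel groups were far below both plastic groups. On gel the late libraries were also all below the early ones, but that difference, -2.31 ± 0.80 on the log2 scale, did not pass (edgeR adjusted p = 0.0855). The difference of late from early plastic was 0.13 ± 0.61 on the log2 scale (edgeR adjusted p = 0.912), where the interval leaves room for changes in either direction. This gene passed under all 22 alternatives, at an adjusted p of 0.00693 or lower.

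ENSRNOG00000018674 fell from 15.5, 8.71 and 8.54 CPM on early plastic to 0.488, 0.235 and 0 CPM on late soft gel. On the log2 scale the difference was -5.53 ± 1.25, with a 95% interval from -8.27 to -2.78 (edgeR adjusted p = 0.00831). Both late groups were low, plastic at passage 6 at 1.16, 0.437 and 0 CPM, while soft gel at passage 3 stood at 6.11, 4.33 and 4.51 CPM, below every early plastic library. That difference of early soft gel from early plastic, -1.13 ± 1.01 on the log2 scale, did not pass (edgeR adjusted p = 0.588). Its error rests on a spread shared with the late groups and takes no account of replicate numbers. The result therefore does not show the early groups to be alike. Without both libraries of pair 3 at passage 6, the error of the late soft gel difference from early plastic was 0.54 in place of 1.25. The difference of late soft gel from early plastic passed under all 22 alternatives, with an adjusted p of 0.0283 at most.

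**Figure D4:**
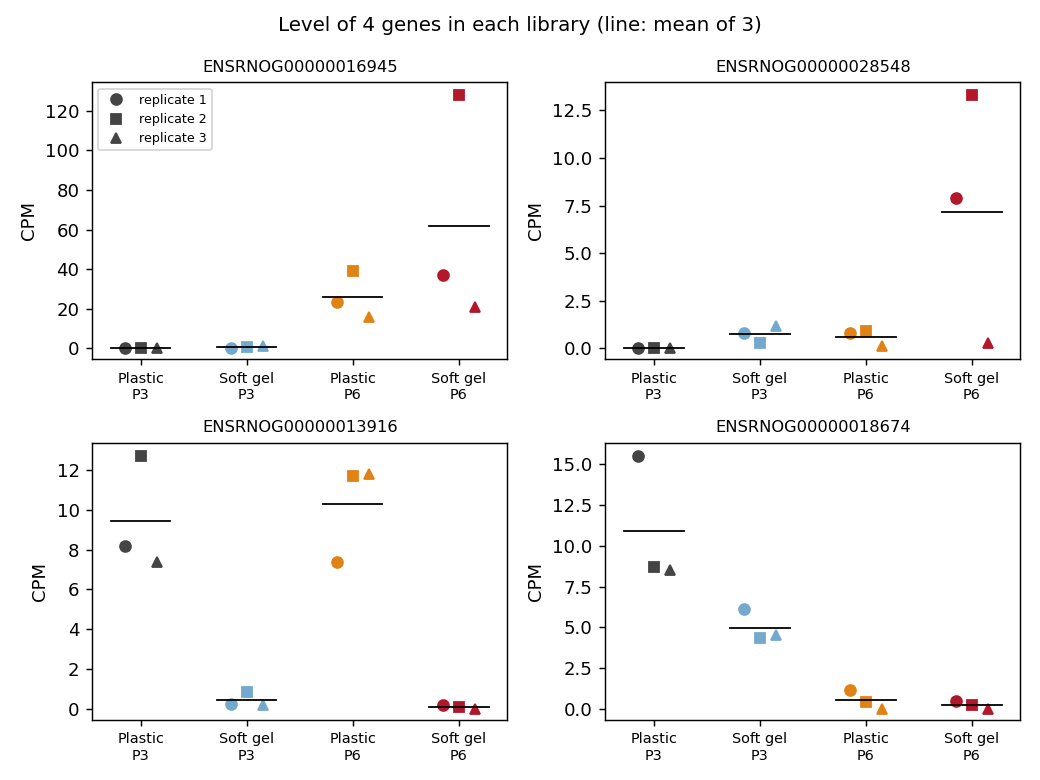
Level in CPM (linear axes) of the 4 genes in each of the 12 libraries, with a line at the mean of 3. ENSRNOG00000016945 is high in both P6 groups, ENSRNOG00000013916 is low in both soft gel groups, ENSRNOG00000018674 is low in both P6 groups, and ENSRNOG00000028548 is highest in 2 of the 3 soft gel P6 libraries.

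To see how the differences divided between surface and passage, the 4058 genes were followed in plastic at passage 6 against soft gel at passage 3. That comparison shares no library with this one and crosses the surfaces, so by arithmetic a gene that differs by passage alone keeps its direction there and a gene that differs by surface alone reverses it. Plastic and gel libraries of one passage and replicate number deviated together from their group means, with correlations across genes from 0.23 to 0.434 at passage 3 and from 0.505 to 0.717 at passage 6. The labels do not state such pairs. The comparisons are thus not fully independent, and the shared numbers are given as counts with no test. In the crossed comparison 2462 of the 14660 genes were called (16.8%), 1422 higher (9.70%) and 1040 lower (7.09%) in late plastic.

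Of the 2156 genes higher on late soft gel, 415 were also higher on late plastic, which is 19.2% of the first list, beside 9.70% of all genes tested, and 29.2% of the 1422. At passage 3 their median level was 17.1 CPM on plastic and 17.2 on gel, and at passage 6 it was 35.1 and 34.4. Of the 1902 lower genes, 344 were also lower on late plastic (18.1% of the list, beside 7.09% of all genes tested, and 33.1% of the 1040), with medians of 44.7 and 43.2 CPM at passage 3 and 24.9 and 25.1 at passage 6, plastic first. These 759 genes were picked for keeping their direction in both comparisons, which by itself sets their medians apart by passage, so the levels are a description.

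In the opposite direction, 157 of the higher genes were lower on late plastic than on early soft gel. That is 7.28% of the higher genes, near the 7.09% of all genes tested, and 15.1% of the 1040. Their median level on plastic was 27.6 CPM at passage 3 and 27.1 at passage 6, and on gel it was 41.5 and 45.1 CPM. A further 195 of the lower genes were higher on late plastic (10.3%, near the 9.70% of all genes tested, and 13.7% of the 1422), with plastic medians of 75.2 and 82.1 CPM and gel medians of 50 and 43.5 CPM. These 352 genes were picked for reversing, which sets their plastic and gel medians apart, and their shares were close to those of all genes, so nothing is read from their number. ENSRNOG00000016945 was among the first kind, at 5.23 ± 0.80 on the log2 scale in the crossed comparison (edgeR adjusted p = 0.00168), and ENSRNOG00000013916 among the second, at 4.52 ± 0.73 (edgeR adjusted p = 0.00217).

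The largest portion, 1584 of the higher genes (73.5%) and 1363 of the lower genes (71.7%), was not called in the crossed comparison, as were 83.2% of all genes tested. ENSRNOG00000028548 and ENSRNOG00000018674 were among these, at -0.38 ± 1.06 (edgeR adjusted p = 0.855) and -3.21 ± 1.12 (edgeR adjusted p = 0.0725). The median log2 fold changes of the 2156 higher genes, set side by side, were 0.77 here, 0.42 for plastic at passage 6 against plastic at passage 3, 0.28 for soft gel against plastic at passage 3 and 0.34 for soft gel against plastic at passage 6. For the 1902 lower genes they were -0.72, -0.39, -0.30 and -0.32. These comparisons share libraries with the one that chose the genes, so their directions are no independent evidence.

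The shared numbers moved when any single library was left out, with the largest drops for libraries of passage 3. Each removal also leaves fewer libraries in a group. Removing plastic 1, 2 and 3 of passage 3 in turn took the 415 to 274, 286 and 261. Removing gel 1, 2 and 3 of passage 3 took it to 246, 309 and 266. Removing single libraries of passage 6 left 314 to 463. The numbers that follow are for libraries of passage 3. For the 344, removing plastic 1, 2 and 3 in turn left 222, 227 and 219, and removing gel 1 left 189. The 157 dropped to 99 when plastic 3 was removed and to 82 when gel 1 was. The 195 dropped to 120, 114 and 112 when plastic 1, 2 and 3 were removed in turn, and to 109 and 121 for gel 1 and gel 3. DESeq2's own test raised the 415 to 581, the 344 to 542, the 157 to 267 and the 195 to 267.

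**Figure D5:**
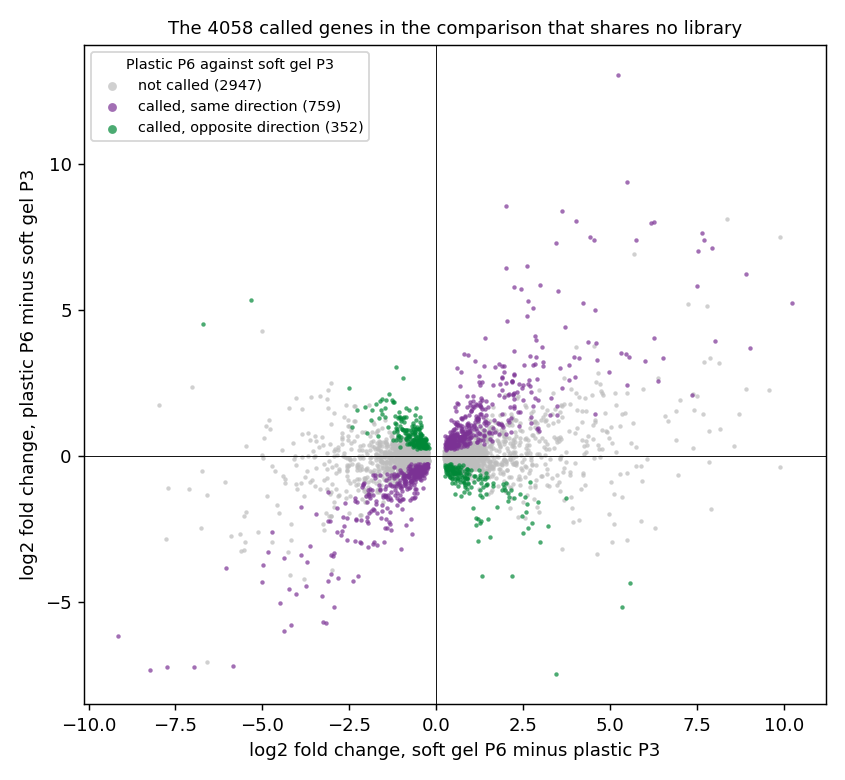
Each point is 1 of the 4058 called genes, with its log2 fold change for soft gel P6 minus plastic P3 against that for plastic P6 minus soft gel P3. The 759 genes called there in the same direction (purple) are more numerous than the 352 called in the opposite direction (green), and 2947 were not called there (grey). Same also exceeded opposite over all 14660 genes tested, called here or not, at 1532 (10.5%) against 930 (6.34%). Deviations shared by plastic and gel libraries of the same passage and number push toward the same direction.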

How the data were processed

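Poly(A)-selected RNA was sequenced as paired reads, per the labels' protocols. The authors deposited raw, unnormalized counts per Ensembl gene. HISAT2 2.1.0, FastQC 0.11.5, Cuffnorm 2.2.1, Cufflinks and the build Rnor_6.0 are named in the submitters' processing notes; how reads were assigned to genes, the strand setting and the annotation release are not stated there, so overlapping, antisense or near-identical genes may share reads.

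Counts were analysed in R 4.3.3 with edgeR 4.0.16 (filterByExpr, minimum count 10 and total 15; TMM scaling; quasi-likelihood test, 12 libraries in 4 groups, contrast of soft gel passage 6 minus plastic passage 3, Benjamini-Hochberg threshold 0.05), with limma 3.58.1 and DESeq2 1.42.0 as alternatives; figures used matplotlib 3.10.9. The standard error is the fold change over the square root of F. The code was tested on simulated data. No replicate couple was treated as 1 library. Depth ran from 57061019 to 71464905 counts per compared library; intervals on counts cover counting error only. Treating the libraries of a pair as independent may make p-values too small for comparisons between passages. For gel against plastic at the same passage it may make them too large.

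The members, the 33 gene lists and the rules were chosen with earlier results of these data known. None of the 32623 identifiers matched the GRCr8 reference table (0 matches), so the lists, the marker shares and the parts of the gene rule that need symbols were not used. The rule took the largest called changes without overlap and with a mean of at least 5 CPM, the first 2 per direction by identifier, and the 6 most abundant called genes at least 2-fold apart, given without identifiers.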

Additional observations from a re-analysis of the deposited data

How the results depend on the processing

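Under the 9 alternatives that changed the scaling, the test, the filter, the block, the pair, the weights or the fit to the 6 libraries alone, 3644 to 4955 genes were called against 4058. Leaving out 1 of the 12 libraries at a time gave 1312 to 2264 higher, 1247 to 2060 lower and 2579 to 4294 called genes, of which 1134 to 1613 were at least 2-fold apart. The lowest counts came without plastic library 1, 2 or 3 of passage 3. Without both libraries of pair 3 at passage 6 there were 3856. The median log2 fold change of all genes moved between -0.022 and 0.0098 with scaling and test. Replicate numbers did not pair the groups, with correlations of deviations of 0.042, -0.275 and -0.296 for numbers 1, 2 and 3. Between different numbers they ran from -0.166 to 0.339, the highest for plastic 2 with gel 3. With the replicate block 4414 genes were called, 2214 higher and 2200 lower. Of the 4 single genes, none changed direction. The list counts and list medians were not run, since no identifier matched a name. Genes under 1 CPM had a median standard error of 0.79 (log2), which limits what could be called there.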
